A study of Arabidopsis thaliana with 12 samples.

Results

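The comparison described here set Arabidopsis seedlings of a line labelled rve5-2 against wild type (WT) after 12 h of warmth, with 3 libraries in each group. All genes that passed a filter on low counts were compared between these 6 of the study's 12 libraries. The filter, the scaling and the estimate of spread used all 12. Both groups were whole seedlings aged 5 days that had grown at 22 °C with 16 h of light and 8 h of dark a day. They then spent 12 h at 29 °C and were collected 12 h after lights on. The remaining 6 libraries came from the same 2 genotypes kept at 22 °C, and they serve as the reference for the genotype difference without warmth. Of the 32399 genes in the deposited table, 21870 passed the filter and were tested. The labels do not say whether replicates were separate cultures, so each p-value measures only the spread between libraries within the groups of the fit. By its title, the study asks how RVE5 bears on the clock protein CCA1 in the growth of the hypocotyl, the seedling stem, in warmth.

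RVE5 (REVEILLE 5) belongs to a family of Myb-like transcription factors related to CCA1 and LHY, the morning repressors of the plant circadian clock. Proteins of this family bind the evening element, a short DNA sequence in the promoters of genes that peak late in the day, and different members raise or lower those genes. Warmth makes hypocotyls grow through the factor PIF4 and auxin, and the evening complex of ELF3, ELF4 and LUX holds PIF4 transcription back.

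The expression of RVE5 went against the label of the line. RVE5 (AT4G01280, chromosome 4, 535211 to 537322, plus strand, positions of the deposited table) was at 16.8, 13.4 and 15.1 CPM (counts per 1e6 counts after scaling) in WT and at 1417, 1325 and 1246 CPM in the libraries labelled rve5-2. The transcript was therefore 88-fold more abundant in those libraries, a log2 fold change of 6.46 ± 0.11 (SE; edgeR, adjusted p = 6.16e-12), and not reduced. The counts are over the whole gene and do not tell a full transcript from a partial one. The next gene, AT4G01290 on the other strand, has its 3′ end 667 bases beyond that of RVE5 and was at 119, 111 and 111 CPM in WT and at 49.7, 49.8 and 50.6 CPM in the libraries labelled rve5-2 (log2 fold change -1.18 ± 0.06, adjusted p = 9.89e-07). Its counts did not overlap between the groups. The kit does not mark the strand, so reads that run past one gene into the other could not be assigned by strand. On the other side, AT4G01270 differed by 0.23 ± 0.15 on the log2 scale (adjusted p = 0.796) and AT4G01260 had no counts. The second gene beyond RVE5, AT4G01310, differed by -0.04 ± 0.08 (adjusted p = 0.966).

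The 6 libraries held 65.9 to 89.1 M counts (M, 1e6). Low values cluster at multiples of about 3.71, which would make each fragment worth that many counts and the libraries 17.76 to 24 M fragments deep. Light-harvesting and Rubisco genes were abundant in all 6 libraries of these seedlings, root genes were present, and 7 to 9 of 9 seed storage genes were at 0. WT replicate 1 stood apart from the other WT libraries. On the first principal component of all 12 libraries, with 36.8% of the variance, it was at 121 against 20.06 and 11.8 for WT replicates 2 and 3, while the libraries labelled rve5-2 were at 85.4, 74.1 and 32. Of 20 root marker genes, 18 were lower in replicate 1 than in both other WT libraries, and the summed level of the 20 was 1626 CPM there against 2726 and 2997 CPM in the others. The sums in the libraries labelled rve5-2 were 1924, 1933 and 2170 CPM. Results that rest on this library are given with and without it.

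With all libraries, 102 of 21870 genes, or 0.466%, differed between the groups at an adjusted p under 0.05. Of these, 70 were higher in the libraries labelled rve5-2 (0.32% of genes tested) and 32 were lower (0.146%). At least 2-fold differences were seen in 31 of the higher and 7 of the lower genes, and the median size of a called change was 0.82 on the log2 scale, against a median change of -0.007 over all genes. In each of the 102 genes the 3 libraries of one group lay wholly above the 3 of the other. Over all genes tested, 6.13% had the libraries labelled rve5-2 wholly above WT and 5.5% wholly below. Without WT replicate 1, 558 genes were called. Of 22188 genes then tested, 356 (1.6%) were higher and 202 (0.91%) were lower, and all 102 of the former calls were among them in the same direction. In 44 of the 70 higher genes, WT replicate 1 was the highest of the WT libraries, that is, the nearest to the other group, and in 9 of the 32 lower genes it was the lowest. Shares over all genes tested were not computed for these counts, so neither is read as a lean of that library. Called genes lay on all 5 chromosomes, at 0.39 to 0.554% of the genes tested on each. Some of the 102 are near-copies of each other, described further on, and cannot be counted as separate genes.

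**Figure D1:**
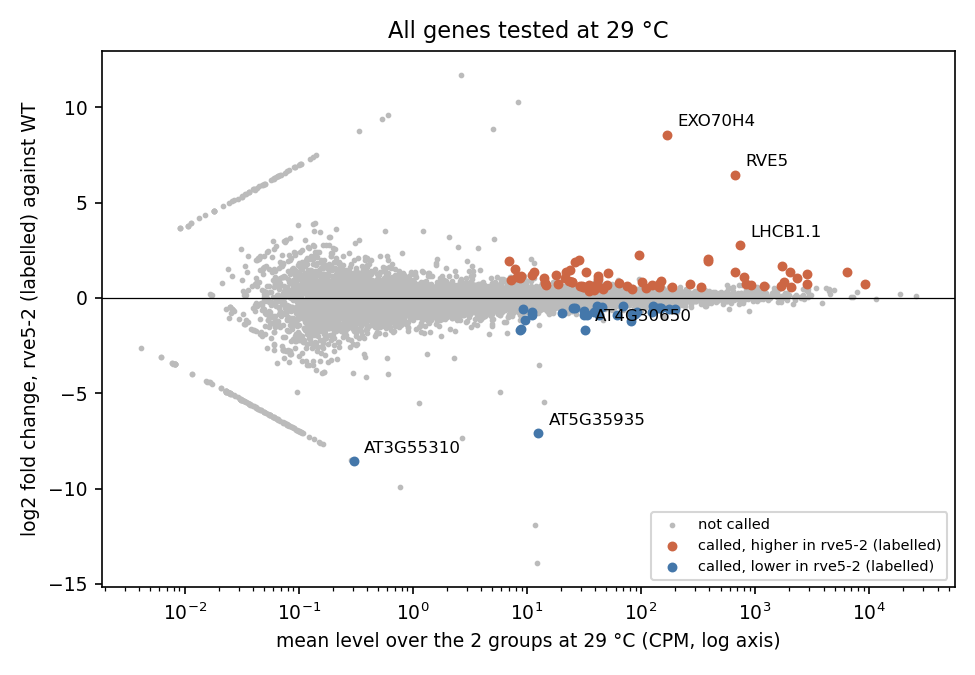
Log2 fold change of each tested gene at 29 °C (libraries labelled rve5-2 against WT) over its mean level in CPM on a log axis. Coloured points are the 70 genes called higher and the 32 called lower. RVE5 and EXO70H4 stand above all other called genes and AT5G35935 and AT3G55310 below them. Most of the genes fanning out at low levels were not called, but AT3G55310 was.

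Of the gene lists, the one with the most members among the higher genes was that of the chlorophyll-binding antenna of the photosystems. LHCB proteins carry light energy to photosystem II and LHCA proteins to photosystem I, and their nuclear genes respond to light and to the clock, with CCA1 first described as a protein binding an LHCB promoter. The list of 22 genes held 18 antenna genes and 4 genes of the small subunit of Rubisco, the carbon-fixing enzyme. Of the 22, 14 rose, all of them antenna genes, and none fell, beside 0.32% higher and 0.146% lower over all genes tested. Those 2 shares stand beside the counts of every list below from the fit of all libraries. The median change was 0.95 on the log2 scale, against -0.007 over all genes. Of the 22, 17 had the groups wholly apart with WT lower and 1 with WT higher, beside 6.13% and 5.5% of all genes tested. For 3 of the genes that rose, the DNA before the gene start is shown because it holds letters of sites named for clock and light factors. The sequences are those of RefSeq on build TAIR10.1, 190 bases each, written on the strand of the gene. Capitals mark the CCA1-binding letters AAAAATCT, in either orientation, and the G-box CACGTG, a core that PIF and other light factors bind.
LHCB1.1 (AT1G29920, chr1:10475970-10476159, minus strand): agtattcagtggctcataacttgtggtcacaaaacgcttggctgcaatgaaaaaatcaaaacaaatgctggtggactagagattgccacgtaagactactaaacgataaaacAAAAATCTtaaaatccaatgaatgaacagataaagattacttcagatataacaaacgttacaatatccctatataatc
LHCB2.3 (AT3G27690, chr3:10255716-10255905, plus strand): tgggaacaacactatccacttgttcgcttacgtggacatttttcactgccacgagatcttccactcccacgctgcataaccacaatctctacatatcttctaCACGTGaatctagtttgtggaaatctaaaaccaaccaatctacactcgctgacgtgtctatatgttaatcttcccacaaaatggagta
LHCA4 (AT3G47470, chr3:17495034-17495223, minus strand): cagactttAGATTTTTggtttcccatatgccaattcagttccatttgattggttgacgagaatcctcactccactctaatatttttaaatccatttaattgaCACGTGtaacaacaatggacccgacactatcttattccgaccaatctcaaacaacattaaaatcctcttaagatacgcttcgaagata

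LHCB1.1, one of several near-identical genes for the main antenna protein, had the largest rise among them. Its level was 207, 225 and 137 CPM in WT and 1378, 1509 and 944 CPM in the libraries labelled rve5-2, a 6.74-fold difference (log2 fold change 2.75 ± 0.22, adjusted p = 9.69e-05). Even the lowest of the latter was several times the highest WT library. The 3 genes of the second antenna type moved by similar amounts. LHCB2.3 was at 39.9, 32.8 and 27.3 CPM in WT and at 167, 194 and 120 CPM in the other group (2.27 ± 0.22, adjusted p = 0.000322). LHCB2.2 changed by 2.02 ± 0.18 and LHCB2.1 by 1.96 ± 0.18, both with adjusted p = 0.00017. Copies of these genes resemble each other: 29.5% of the 50-base stretches of LHCB2.2 and 20.5% of those of LHCB1.1 occur elsewhere in the genome, and LHCB2.1 lies between them, so the split of reads among copies is uncertain. LHCB2.3 shares none.

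LHCB3, the third component of the antenna trimers, was at 913, 940 and 663 CPM in WT and at 2814, 2951 and 2188 CPM in the libraries labelled rve5-2 (1.66 ± 0.17, adjusted p = 0.000516). LHCA4 of photosystem I was at 1951, 1641 and 1481 CPM against 4291, 4185 and 3509 CPM (1.24 ± 0.13, adjusted p = 0.000709). Its groups lay far apart, and WT replicate 1 was the highest WT library. Further rises on the log2 scale were 1.38 in both LHCB1.4 and LHCB1.2, 1.35 in LHCB1.5, 1.09 in LHCB4.2, 1.07 in LHCA1, 0.83 in LHCB6, and 0.73 in both LHCB5 and LHCB1.3. LHCA1, LHCB5 and LHCB1.3 were each called in 2 of the 6 fits that left out a 29 °C library. The sizes of the changes differed between genes. Per length, LHCB1.3, the most abundant of them in WT, went from 6567 to 10250 FPKM, while LHCB1.1 went from 159 to 1000 FPKM (the authors' FPKM, mean of 3).

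The Rubisco genes did not pass the test. RBCS1A was at 30000, 22620 and 22650 CPM in WT and at 29260, 26520 and 24170 CPM in the libraries labelled rve5-2, and these ranges overlap (0.09 ± 0.12, adjusted p = 0.943). RBCS1B, RBCS2B and RBCS3B differed by 0.03, -0.05 and 0.23 on the log2 scale. Among antenna genes, LHCA2, LHCA3 and LHCB4.1 had values of 0.55, 0.60 and 0.44 with adjusted p of 0.0898, 0.0868 and 0.175, and LHCB4.3 was at -0.42 (adjusted p = 0.383). Without WT replicate 1, 18 of the 22 were higher, beside 1.6% of all genes then tested: LHCA2, LHCA3, LHCB4.1 and RBCS3B joined. WT replicate 1 was the highest WT library in 19 of the 22 genes. The share of all genes with that order was not computed, so it is not read as a trait of the list. With the averaged log2 level of the 20 root markers as a covariate, 17 of 22 were higher, among 125 genes higher in total. The summed level of the list was 108400, 79930 and 80720 CPM in WT and 129200, 122400 and 111300 CPM in the libraries labelled rve5-2. In whole seedlings, more cells of a type and more RNA per cell cannot be told apart.

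**Figure D2:**
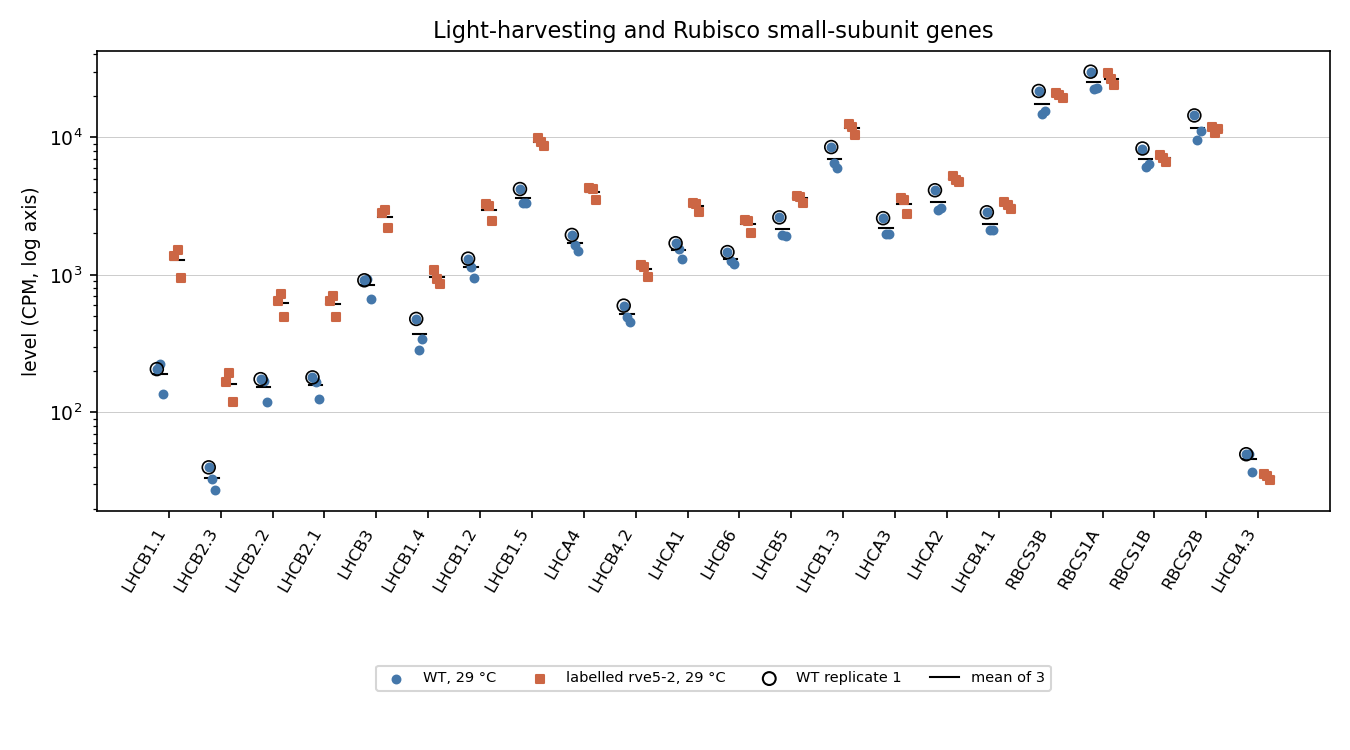
Level in CPM (log axis) of the 22 light-harvesting and Rubisco small-subunit genes in each library at 29 °C, ordered by log2 fold change; circles are WT, squares the libraries labelled rve5-2, bars the means of 3, and rings mark WT replicate 1. The groups are separate from LHCB1.1 through the middle of the plot and overlap in the RBCS1A, RBCS1B and RBCS2B genes. WT replicate 1 is the highest WT library in 19 of the 22, a count with no share over all genes beside it.

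Other genes of the photosynthetic apparatus were among the calls. They were in no list and were picked out after their values were seen. The photosystem I subunit genes PSAD-2, PSAO and PSAE-1 rose by 0.75, 0.64 and 0.55 on the log2 scale, and PSBQ-2, of the oxygen-evolving part of photosystem II, rose by 0.64. CRD1, for a step in the making of chlorophyll, rose by 0.67 (adjusted p = 0.0408). G-TMT, which makes vitamin E in plastids, rose by 0.71 (adjusted p = 0.0133). HDR, the last enzyme of the plastid isoprenoid pathway, rose by 0.58 (adjusted p = 0.00971), and LQY1, which acts in the repair of photosystem II, by 0.57 (adjusted p = 0.0478). PSAE-1 and PSBQ-2 were called in only 1 of the 6 fits that left out a library at 29 °C.

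Among 15 morning clock genes, 3 rose and none fell, beside 0.32% higher and 0.146% lower over all genes tested. The median change was 0.86, against -0.007 over all genes, and several of the large values came from genes at low levels, described below. LNK1 and LNK2 encode coactivators that work with REVEILLE proteins. LNK1 was at 28.5, 28.4 and 27.4 CPM in WT and at 57.6, 58.6 and 53.6 CPM in the libraries labelled rve5-2, a 2.02-fold difference (1.01 ± 0.11, adjusted p = 0.00111). LNK2 was at 11.9, 12.3 and 10.2 CPM in WT and at 51.1, 45.5 and 28.7 CPM in the other group (1.87 ± 0.25, adjusted p = 0.00345). The LNK2 spread was wide in the libraries labelled rve5-2, yet their lowest value was above every WT value. PRR7, a pseudo-response regulator that represses CCA1 and LHY, was at 76, 78.5 and 63.5 CPM against 139, 147 and 108 CPM (0.85 ± 0.11, adjusted p = 0.00387).

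CCA1 and LHY, which peak around dawn, were at about 1 CPM or less in WT at this time of day. CCA1 was at 1.01, 0.424 and 0.772 CPM in WT and at 2.77, 3.01 and 1.68 CPM in the libraries labelled rve5-2. The groups did not overlap, but the difference of 1.75 ± 0.53 on the log2 scale did not pass the test (adjusted p = 0.289). LHY was at 0.678, 0.749 and 0.726 CPM against 2.15, 0.946 and 0.423 CPM, which overlap (0.71 ± 0.54, adjusted p = 0.835). PRR9 (2.02, adjusted p = 0.218), LNK3 (2.65, adjusted p = 0.369) and LNK4 (3.08, adjusted p = 0.0539) also gave wide positive values at low levels, and LNK4 was called without WT replicate 1 (2.95, adjusted p = 0.0429). The other REVEILLE genes of the list did not pass: values for RVE1, RVE2, RVE4, RVE6, RVE7 and RVE8 were -0.38, -0.37, 0.08, -0.22, 0.52 and 0.86. RVE3 did not pass either, and its value, not given here, was above 0. Of the 15 morning clock genes, 12 had values above 0 and 3 below.

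Of 16 evening clock genes, 2 fell and none rose in edgeR, beside 0.146% lower and 0.32% higher over all genes tested. The median was -0.12. DESeq2 called 3 higher and 3 lower, and a fit of the 6 libraries at 29 °C alone called 0 in either direction. ELF4, a subunit of the evening complex, was at 39.3, 37.5 and 47.7 CPM in WT and at 21.9, 19.3 and 25.3 CPM in the libraries labelled rve5-2, 1.87-fold lower (-0.90 ± 0.11, adjusted p = 0.00221). COR27, a repressor of PRR5 and TOC1 that is also induced by cold, was at 44.3, 37.1 and 36.5 CPM against 25.7, 23.1 and 25.6 CPM (-0.66 ± 0.09, adjusted p = 0.00457). In both genes the groups were well separated. The other subunits of the evening complex did not pass the test, with ELF3 at -0.14 (adjusted p = 0.764) and LUX at 0.02 (adjusted p = 0.991), nor did TOC1 (-0.16, adjusted p = 0.582). Without WT replicate 1, GI (0.50, adjusted p = 0.0478) and CHE (0.49, adjusted p = 0.0222) were called higher. JMJD5, a clock-linked demethylase gene outside the lists, was at 182, 144 and 148 CPM in WT and at 94.7, 81.8 and 107 CPM in the other group (-0.75 ± 0.11, adjusted p = 0.0054).

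An evening element lay before the gene start of AT4G30650, a lower gene described further on with the cold-responsive genes, and the 190 bases before its start are shown from RefSeq on build TAIR10.1. Capitals mark the evening element AAAATATCT and a G-box.
AT4G30650 (chr4:14954014-14954203, plus strand): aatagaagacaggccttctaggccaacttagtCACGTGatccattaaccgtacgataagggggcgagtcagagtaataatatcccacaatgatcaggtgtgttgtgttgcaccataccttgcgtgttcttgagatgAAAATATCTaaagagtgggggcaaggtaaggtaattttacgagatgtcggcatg

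The letters of 3 motifs were counted on both strands in 300 bases around each gene start, 250 before and 50 after, in 21789 of the tested genes. The evening element was found in 3 of 32 lower genes (9.38%), in 2 of 70 higher genes (2.86%) and in 2.96% of all. AT4G30650 was one of these lower genes, and JMJD5, in which it lay after the start, was another. The G-box was found in 12 of the 70 higher genes (17.1%), in 6.25% of the lower genes and in 8.53% of all. The CCA1-binding letters, which neither contain nor lie within the evening element, were in 11.4% of the higher genes, 6.25% of the lower genes and 7.94% of all. In the list of 22 light-harvesting and Rubisco genes 5 held the G-box (22.7%), 4 the CCA1-binding letters and 0 the evening element. These shares describe letters in a window and were not tested, and genes of one family share promoter sequence.

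**Figure D3:**
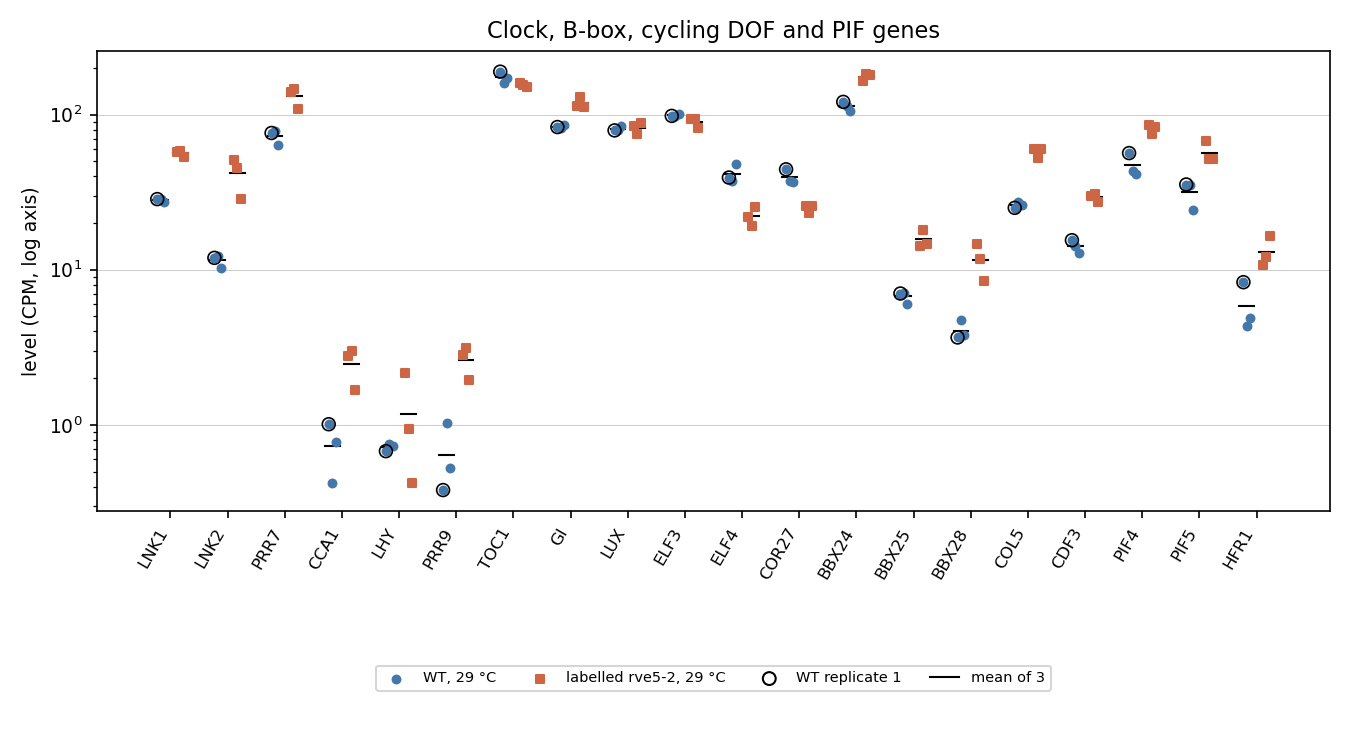
Level in CPM (log axis) of clock, B-box, cycling DOF and PIF genes in each library at 29 °C; circles are WT, squares the libraries labelled rve5-2, bars the means of 3, and rings mark WT replicate 1. LNK1, LNK2, PRR7, the B-box genes BBX24, BBX25 and BBX28, COL5, CDF3 and PIF4 lie higher in the libraries labelled rve5-2, ELF4 and COR27 lower, and CCA1, LHY and PRR9 sit near the bottom of the axis.

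Several regulators of light signalling and growth rose with them. Of 13 B-box factors, zinc-finger proteins of light signalling, 12 were tested, 3 rose and none fell (median 0.93). Over all genes tested, 0.32% rose and 0.146% fell. BBX24 was at 121, 113 and 106 CPM in WT and at 166, 182 and 179 CPM in the libraries labelled rve5-2 (0.63 ± 0.08, adjusted p = 0.00296). BBX25, its close relative, was at 7.02, 7.13 and 6.05 CPM against 14.3, 18 and 14.7 CPM (1.22 ± 0.16, adjusted p = 0.00309). BBX28, which binds HY5 and hinders its action, was at 3.66, 4.72 and 3.79 CPM against 14.6, 11.8 and 8.41 CPM (1.51 ± 0.21, adjusted p = 0.00526). None of the 3 had overlapping groups. BBX20, which was not called with all libraries (-0.81, adjusted p = 0.44), was lower without WT replicate 1 (-1.13, adjusted p = 0.0162). COL5, a CONSTANS-like factor outside the lists, was even across libraries: 25, 27.2 and 26.1 CPM in WT and 59.7, 52.7 and 59.7 CPM in the other group (1.14 ± 0.07, adjusted p = 9.76e-06).

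Of 17 flowering genes tested, 1 rose: CDF3, a cycling DOF factor, at 15.5, 14.2 and 12.8 CPM in WT and at 29.9, 30.6 and 27.3 CPM in the libraries labelled rve5-2 (1.05 ± 0.13, adjusted p = 0.00289). The list's median was 0.02. In the list of 15 regulators of the PIF and shade type, with a median of 0.19, a single gene was called. This was PIF4, at 56.4, 43.3 and 41.5 CPM in WT and at 86.1, 75 and 83.7 CPM in the other group (0.79 ± 0.14, adjusted p = 0.0228). Its groups did not overlap, but it was called in only 1 of the 6 fits that left out a library at 29 °C, the one without WT replicate 1 (0.95, adjusted p = 0.00189). In that fit PIF5 (0.94), PIF7 (0.62) and HFR1 (adjusted p = 0.0056) were also higher. PKS2, a phytochrome-binding protein of phototropism outside the lists, was at 17.76, 14.6 and 16.8 CPM against 29.9, 31.7 and 29.8 CPM (0.89 ± 0.09, adjusted p = 0.000339).

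Genes of cell growth gave few calls. All 19 SAUR genes, small auxin-induced genes of cell expansion, had positive values (median 0.71). In 17 the libraries labelled rve5-2 lay wholly above WT, beside 6.13% of all genes tested, but only SAUR62 rose at the threshold. SAUR62 was at 5.66, 5.09 and 6.36 CPM in WT and at 11.7, 12.4 and 10.9 CPM in the libraries labelled rve5-2 (1.03 ± 0.16, adjusted p = 0.0127), with 23.2% of its 50-base stretches found elsewhere. It was called in 3 of the 6 fits that each left out a 29 °C library, and not without WT replicate 2 or without replicate 1 or 2 of the libraries labelled rve5-2. Neighbouring SAUR genes resemble each other, so these values are not independent. Without WT replicate 1, SAUR16, SAUR20 and SAUR21 were higher as well (0.89, 0.89 and 1.18). Of 20 expansin and XTH genes, whose enzymes loosen and remodel the wall, EXPA10 fell (-0.47 ± 0.08, adjusted p = 0.03) and none rose (median -0.03). EXPA10 was called in 2 of the 6 fits that each left out a 29 °C library, those without WT replicate 1 and without WT replicate 3. In the fit without WT replicate 1, EXPA5 and EXPA8 were higher as well (0.45 and 1.36), and XTH18 and XTH19 were lower (-1.15 and -1.25). A pair of wall genes outside that list moved in opposite ways: XTH6 rose from 34.8, 28.3 and 26.7 CPM to 77.5, 62.3 and 82.6 CPM (1.31 ± 0.15, adjusted p = 0.00146), and XTH31 fell by 0.57 on the log2 scale (adjusted p = 0.0495).

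YUC8, an enzyme of auxin synthesis that PIF4 turns on in warmth, was at 1.91, 2.32 and 2.49 CPM in WT and at 3.37, 5.48 and 4.42 CPM in the libraries labelled rve5-2. These groups did not overlap, but the difference did not pass (0.98 ± 0.35, adjusted p = 0.408). No member was called among 10 auxin biosynthesis genes (median 0.02), 18 auxin response genes (0.17), 18 gibberellin genes (0.07) or 15 brassinosteroid genes (-0.01). Nor was any called among 28 heat shock genes (median 0.05), whose values ran from -0.54 to 1.07.

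Cold-responsive genes had a median of -0.46, and 1 of 15 fell. This was RD29A, a gene of dehydration and cold, at 14.6, 14.3 and 14.3 CPM in WT and at 7.74, 6.56 and 8.93 CPM in the libraries labelled rve5-2 (-0.90 ± 0.17, adjusted p = 0.0478). Of the 6 fits that each left out a 29 °C library, RD29A was called in 1, that without WT replicate 1 (adjusted p = 0.0292). Nor was it called under RLE scaling, in limma on log2(FPKM + 1) or with the 6 libraries at 29 °C alone. AT4G30650, annotated as a low-temperature and salt responsive membrane protein and outside the list, was at 60.1, 42.4 and 44.8 CPM against 15.1, 12.2 and 19 CPM, 3.18-fold lower (-1.67 ± 0.17, adjusted p = 0.000458). COR15A and COR15B were at -1.43 and -1.84, with adjusted p of 0.582 and 0.289, and COR15B was at 19.8 CPM in WT replicate 1 against 4.47 and 7.1 CPM in the other WT libraries. COR47 was lower only in the fit without that library (-0.66, adjusted p = 0.0463).

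The flavonoid pathway makes ultraviolet-screening pigments, and its calls depended on WT replicate 1. With all libraries none of 25 genes was called, with a median of -0.51 and 23 of 25 values below 0. An unadjusted p under 0.05 was found for 7, beside 8.4% of all genes tested, and DESeq2 called 1. Without WT replicate 1, 8 were lower and none higher (median -0.72), beside 0.91% lower and 1.6% higher over all genes then tested. CHS, chalcone synthase at the entry of the pathway, was at 110 CPM in WT replicate 1 and at 330 and 332 CPM in the other WT libraries, against 158, 160 and 148 CPM in the libraries labelled rve5-2. Its change was -0.73 ± 0.29 with all libraries (adjusted p = 0.507) and -1.09 ± 0.09 without the first (adjusted p = 8.48e-05). FLS1, flavonol synthase, likewise went from -0.84 (adjusted p = 0.329) to -1.18 (adjusted p = 0.000166). The other 6 called in that fit were PAL1, CHI, CHIL, F3H, F3PH and MYB12. In 13 of the 25 genes, WT replicate 1 was the lowest WT library and all libraries labelled rve5-2 were under the other WT libraries. The share of all genes with that order was not computed.

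**Figure D4:**
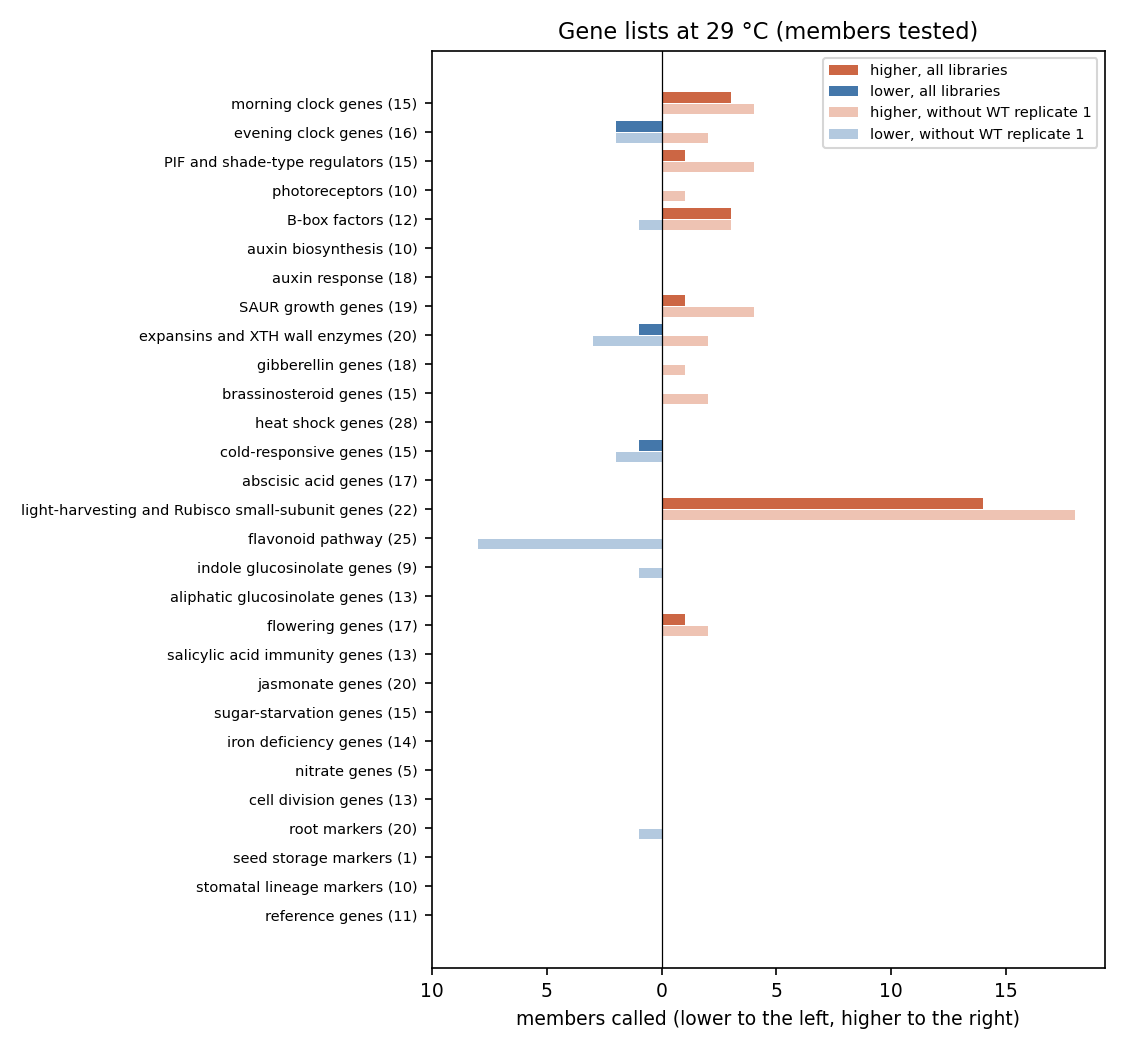
Number of members called higher (to the right) and lower (to the left) at 29 °C in each of 29 gene lists, with the number of members tested in parentheses; dark bars use all libraries and pale bars leave out WT replicate 1. The light-harvesting list has 14 higher with all libraries and 18 without that library, and the flavonoid list has 0 lower with all libraries and 8 without it.

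In the other lists with no call, medians were -0.17 for 9 indole and -0.08 for 13 aliphatic glucosinolate genes, -0.14 for 13 salicylic acid genes, -0.20 for 20 jasmonate genes, -0.09 for 17 abscisic acid genes and 0.10 for 10 photoreceptor genes. They were 0.00 for 15 sugar-starvation genes, 0.05 for 14 iron deficiency genes, -0.13 for 5 nitrate genes and -0.12 for 13 cell division genes. Tissue markers and reference genes gave no call either, with medians of -0.22 for 20 root, 0.01 for 10 stomatal and 0.04 for 11 reference genes, and 1 seed storage gene was testable (-0.01). Over the 20 lists without a call in edgeR, 45 of 285 members had an unadjusted p under 0.05, which is 15.8% against 8.4% of all genes tested, and DESeq2 called 7. Of the jasmonate genes, 19 of 20 had values below 0. Without WT replicate 1, single members were lower in the indole glucosinolate list (CYP79B2, -0.64) and the root list (PYK10, -0.51), and single members were higher among the photoreceptors (CRY1, 0.35) and gibberellin genes (GASA6, 0.73). PRE1 and PRE6 of the brassinosteroid list were then higher too, by 1.303 and 0.73 on the log2 scale.

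Large changes were also seen in genes outside every list. EXO70H4, a subunit of the exocyst that tethers vesicles at the cell surface (AT3G09520, chromosome 3, 2923743 to 2925629), was at 1.35, 0.736 and 0.588 CPM in WT and at 344, 336 and 340 CPM in the libraries labelled rve5-2, a 381-fold difference (8.57 ± 0.23, adjusted p = 4.98e-10). Its nearest tested neighbour on the left, AT3G09500, differed by 0.09. AT5G35935, annotated as a transposable element gene on chromosome 5, was at 22, 26.1 and 26.6 CPM in WT and at 0.207, 0 and 0.314 CPM in the other group (-7.09 ± 0.58, adjusted p = 9.69e-05). AT3G55310, described as a Rossmann-fold protein, had 38, 52 and 63 counts in WT and none in the libraries labelled rve5-2. Its WT mean was at least 11.6-fold higher than the level of 3 fragments over the group. It shares 37.7% of its 50-base stretches with other places and overlaps the end of PGP20, so its few counts are uncertain.

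Further rises stood alone. The thionin AT1G66100, a small antimicrobial peptide gene, was at 16.6, 8.26 and 9.77 CPM in WT and at 44.8, 40.4 and 53.3 CPM in the libraries labelled rve5-2 (2.00 ± 0.25, adjusted p = 0.00225). THI2.2, another thionin, rose by 1.48 (adjusted p = 0.00017). NDA1, an alternative NAD(P)H dehydrogenase of mitochondria, was at 2.79, 3.65 and 2.18 CPM against 10.06, 15.6 and 7.69 CPM (1.95 ± 0.27, adjusted p = 0.00431). GRIK1, a kinase that activates the energy sensor SnRK1, was at 14.6, 10.5 and 12.7 CPM against 38.6, 29.7 and 27.2 CPM (1.34 ± 0.14, adjusted p = 0.000605). Each of these had separate groups. ADS1, a fatty acid desaturase, was 2.3-fold higher (adjusted p = 0.00164), and PPT2, a phosphoenolpyruvate and phosphate translocator of plastids, rose by 1.05 (adjusted p = 0.00637). The wall proteins AGP12 and AGP21 rose by 0.66 and 0.53, GSTU18, a glutathione transferase, by 0.49, and KCS1, which lengthens fatty acids for wax, by 0.46.

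Among falls, the annotated pair AT14A (AT3G28290 and AT3G28300) changed by -1.70 and -1.65, but all of their 50-base stretches are found elsewhere, so they cannot be counted as separate genes. A block of similar genes on chromosome 1 had the same limit. In it the disease-resistance genes AT1G58807, AT1G58848, AT1G59124 and AT1G59218 fell by 0.82, 0.91, 0.85 and 0.91 on the log2 scale, and the ribosomal protein S5 genes AT1G58684, AT1G58983 and AT1G59359 by 0.54, 0.54 and 0.53, with 99.3% or more of their stretches shared. IGMT5, a methyltransferase of indole glucosinolates, was at 36, 52.7 and 42.9 CPM in WT and at 23.1, 22.1 and 25.1 CPM in the libraries labelled rve5-2 (-0.90 ± 0.11, adjusted p = 0.00212). Smaller falls were seen in other genes: ERD5, a proline dehydrogenase, by 0.74 (adjusted p = 0.0243), SIP2, an enzyme of raffinose breakdown, by 0.72 (adjusted p = 0.0306), and POP2, a GABA transaminase, by 0.44 (adjusted p = 0.0418). GRP-3 fell by 0.59 and CSLE1, a cellulose synthase-like gene, by 0.44.

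The same genotype comparison without warmth, from 6 other libraries, called 42 genes at 22 °C (0.192%). Of the 102 genes called at 29 °C, 32 were called there too (31.4%, and 76.2% of the calls at 22 °C). All 32 moved the same way, 23 higher and 9 lower. Both contrasts came from 1 fit of all 12 libraries, so the calls at 22 °C also depended on the 29 °C libraries. Without WT replicate 1 at 29 °C, 82 genes were called at 22 °C, and 59 the same way at both temperatures. Of the 70 called at 29 °C alone, 65 had the same sign at 22 °C. LHCB2.1, for one, was at 45, 36.6 and 41.8 CPM in WT and at 179, 165 and 122 CPM in the libraries labelled rve5-2 at 22 °C, a change of 1.92 beside 1.96 in warmth. In the light-harvesting list, 10 of 22 were higher at 22 °C. In the evening clock list, 3 of 16 were higher there and none lower (median 0.25). PRR7 and LNK1 gave larger values at 22 °C than at 29 °C (1.39 and 1.41, beside 0.85 and 1.01).

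Whether the genotype difference changed with temperature was tested by the interaction of genotype and temperature. No gene was called in edgeR (0.0%; smallest adjusted p = 0.228), while 1070 of 21870 had an unadjusted p under 0.05, 50 of them among the 102. The interaction contains the same 29 °C difference that chose the 102. Small interaction p-values among them, in either tool, therefore follow in part from that choice. DESeq2 called 43 genes, some with extreme log2 values, such as bZIP2 at -27.3 and PHT1;2 at 26.9, so the count is uncertain. Of the 43, 17 were among the 102. ELF4 is one of these: at 22 °C it was at 56.6, 51.7 and 57.4 CPM in WT and at 57.1, 51.1 and 56.8 CPM in the libraries labelled rve5-2, so the fall was seen at 29 °C and the value at 22 °C was -0.01. Its interaction was -0.90 ± 0.16 (adjusted p = 0.398 in edgeR and 0.000599 in DESeq2). COR27 had 0.03 at 22 °C and an interaction of -0.69 ± 0.13 (adjusted p = 0.398 in edgeR and 0.00442 in DESeq2). Evening clock genes outside the 102 that DESeq2 called in the interaction were GI (-0.66), FKF1 (-0.63), GRP7 (-0.44) and TOC1 (-0.52). PKS2 had 0.11 at 22 °C and an interaction of 0.79 ± 0.12 (adjusted p = 0.272 in edgeR and 0.00035 in DESeq2). LHCA1 gave 0.88 ± 0.23 (adjusted p = 0.716 in edgeR and 0.0292 in DESeq2), and POP2 gave -0.62 ± 0.12 (adjusted p = 0.398 in edgeR and 0.00192 in DESeq2). SIP2, ERD5, PRR7 and PIF4 gave -0.71, -0.62, -0.54 and -0.18, and GSTU18, LHCB1.2, ADS1 and KCS1 gave 0.44, 0.58, 0.62 and 0.39, and none of these was called by either tool.

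**Figure D5:**
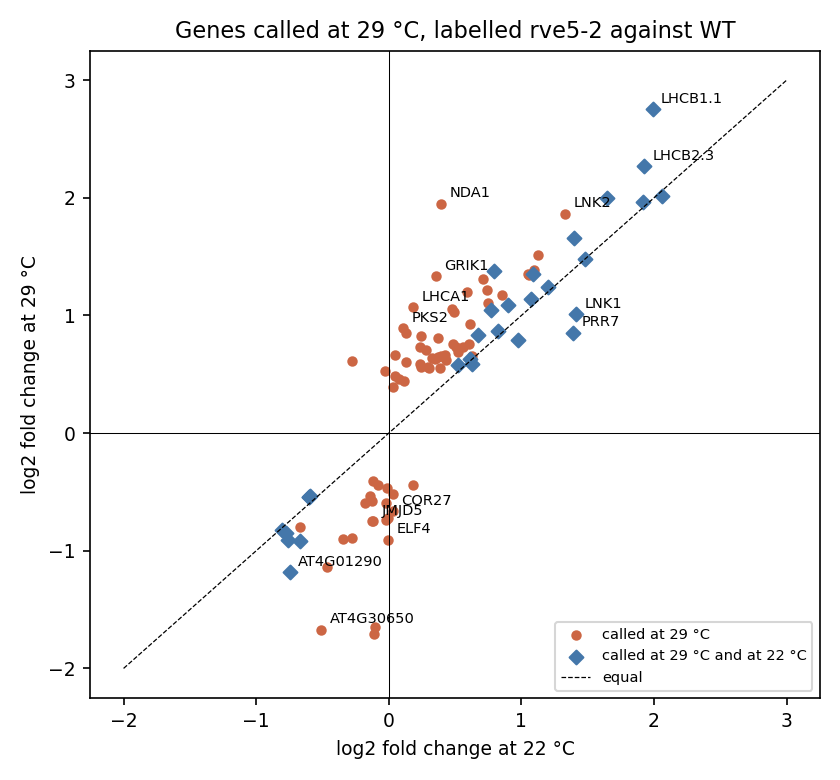
Log2 fold change (libraries labelled rve5-2 against WT) at 29 °C over that at 22 °C for the genes called at 29 °C, without RVE5, EXO70H4, AT5G35935 and AT3G55310, which lie off the scale or had no counts in one group; diamonds were also called at 22 °C and the dashed line marks equal values. Antenna genes lie near or above the line, while ELF4, COR27 and JMJD5 lie near 0 at 22 °C and below 0 at 29 °C.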

How the data were processed

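Per the labels, RNA from whole seedlings was sequenced from libraries of a TruSeq kit that does not mark the strand. The deposited table gives counts per gene and library, and FPKM that the authors computed. Cutadapt 1.9, HISAT2 2.0.4, StringTie 1.3.4d, edgeR and build TAIR10 are named in the submitters' processing notes; how reads were assigned is not given in the sources used here. Temperatures are those of the individual sample labels, because one shared treatment text names 29 °C for every sample.

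The deposited counts entered edgeR 4.0.16 (R 4.3.3): filterByExpr, TMM scaling, a quasi-likelihood fit with 1 mean per group over all 12 libraries, and Benjamini-Hochberg adjustment over 21870 genes, called at 0.05. SEs are the log2 fold change divided by the root of F, an approximation. CPM are counts per 1e6 counts after TMM scaling. DESeq2 1.42.0 and limma 3.58.1 (on log2 FPKM plus a pseudocount) were alternatives. The fit was also run on simulated counts, drawn from the same mean per gene in all libraries except for the genes set to change. These held no count spacing and no outlying library, so they cannot show how such features affect the calls. Floors (3 fragments) cover counting error only. Shared stretches are 50-base words of the gene found elsewhere in the RefSeq genome. The comparison and the 29 gene lists were chosen with earlier results of these data known. Named were RVE5 and its neighbours, CCA1, LHY, PIF4, YUC8, the 10 largest rises and falls with a symbol in the table, up to 3 called members of each list, and the 5 called genes with the smallest interaction p in each direction; all other names were chosen after their values were seen.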

Additional observations from a re-analysis of the deposited data

How the results depend on the processing

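The number of genes called at 29 °C depended on the fit. None of the 102 turned sign under any setting tried. In all 102 the groups lay wholly apart, so leaving out 1 library could hardly turn a sign, and this is no check of direction. RLE scaling gave 92, no filter 106, a mean FPKM of at least 1 gave 105, counts divided by the spacing 106, and limma on log2(FPKM + 1) gave 123 and on log2(FPKM + 0.1) 106. With only the 6 libraries at 29 °C, 38 genes were called (31 higher, 7 lower), 36 of them among the 102. DESeq2 called 345 (233 higher, 112 lower) and the averaged root marker level as covariate 179 (125 higher, 54 lower), both with all 102 among them. Leaving out 1 library gave 52 to 558 calls, 34 to 356 higher and 18 to 202 lower. The upper end is without WT replicate 1 at 29 °C, and the lower end without replicate 2 of the libraries labelled rve5-2; 65 were called without WT replicate 2 and 63 without replicate 1 of the libraries labelled rve5-2. Of the 102 genes, 49 were called the same way in every one of the 6 fits that left out a library at 29 °C, 34 higher and 15 lower.

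DESeq2 called 143 genes at 22 °C, 72 the same way at both temperatures and 43 in the interaction; leaving out 1 library gave 25 to 82, 21 to 59 and 0 to 1. The 82 and the 59 came without WT replicate 1 at 29 °C. Leaving out each 22 °C library was chosen after seeing the data. RVE5 stayed between 6.38 and 6.54. Of 826 recomputed values of named genes, 734 kept their side of the threshold, 90 lost it and 2 turned sign: AT4G01310 to 0.06 without WT replicate 1 (adjusted p = 0.767; range over left-out libraries -0.10 to 0.06) and LHY to -0.07 without replicate 1 of the libraries labelled rve5-2 (adjusted p = 1; range -0.07 to 1.11), neither called before. The causes were not tested. With the replicate number as a block, 123 genes were called, 97 of them among the 102; same-numbered libraries at 29 °C correlated by 0.174, 0.008 and 0.19 in their deviations from the group means, so the numbers were not taken as pairs. Levels near 1 CPM, as of CCA1 and LHY, limit what this depth can show.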
